A study of Homo sapiens with 6 samples.

Results

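Semaphorins are guidance ligands, and plexins and neuropilins are the receptors that bind them. The genes of these families were taken from the deposited expression table by their symbols: SEMA followed by a number from 3 to 7 and a letter, PLXN followed by a letter from A to D and a number, and NRP1 or NRP2. The rule used no measured value and found 31 of the 59074 listed genes, namely 20 semaphorins, 9 plexins and 2 neuropilins. RNA had been sequenced from 3 established human glioblastoma cell lines, namely LN-229, T98G and U251, at 72 h after transient transfection with a siPOOL, a complex pool of siRNAs. In each cell line, 1 culture received a non-target siPOOL (siControl) and 1 received a siPOOL against the long non-coding RNA HOTAIRM1 (siHOTAIRM1), which gave 6 libraries. The titles of the first cell line's samples read LNT229, while its cell line entry reads LN-229, the name used here. Each cell line and condition had 1 library. The knock-down comparison therefore took the 3 cell lines as its replicates, and no difference within a single cell line could be tested.

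As background, the semaphorins of class 3 are secreted and most of them bind a neuropilin, which has a short cytoplasmic part and passes the signal on through a plexin of class A or through PLXND1. The semaphorins of classes 4, 5 and 6 span the membrane and mostly bind plexins directly. Class 4 binds plexins of class B and PLXND1, class 6 binds plexins of class A, and SEMA5A binds PLXNB3. SEMA7A is held in the membrane by a lipid anchor and binds PLXNC1 and integrins. The cytoplasmic part of a plexin is an activator of GTP hydrolysis by small Ras-like GTPases, and the class B plexins also bind exchange factors for RhoA, so that the pathway acts on adhesion and on the actin skeleton. Neuropilins in addition bind vascular endothelial growth factors. In gliomas these genes are known for effects on invasion, vessels and the growth of tumor cells.

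Levels are given in CPM, the reads of a gene per M reads of its library. The libraries held 52.3 to 104 M reads, as read from the smallest steps between their low values, and 3 reads, taken as the smallest detectable level, came to 0.0289 to 0.0574 CPM. Intervals of levels and folds cover counting error only. HOTAIRM1 itself went from 1.99 to 0.952 CPM in LN-229, from 3.49 to 2.15 CPM in T98G and from 1.27 to 0.623 CPM in U251 after knock-down (mean difference of log2(CPM + 1) -0.54, SE 0.12, adjusted p = 0.0146, limma, 3 cell lines). That call was lost in 9 of 11 alternatives, with changes from -0.87 to -0.33 over all 11 and adjusted p = 0.00302 to 1 (limma or a per-gene paired t-statistic). Of 8 markers of glioma cells, VIM and CD44 lay above 250 CPM in all 6 libraries, while SOX2, S100B and FABP7 were under 3 reads in both T98G libraries. NES was at 0.956 and 0.866 CPM in T98G and at 329 to 507 CPM elsewhere. GFAP was at 42.5 and 20.75 CPM in U251 and at most 0.317 CPM elsewhere. OLIG2 was at most 1.69 CPM in any library. The blood cell markers PTPRC, CD14, CD3E and CD79A summed to 0.0457 to 0.305 CPM and the epithelial markers EPCAM, CDH1, KRT5 and KRT20 to at most 0.275 CPM per library. The endothelial markers PECAM1, CDH5, VWF and TEK summed to 0.635 to 3.10 CPM, the highest in U251 siControl. The neuron markers RBFOX3, SYT1, SNAP25 and GAD1 summed to 6.77 to 33.5 CPM, and their sum was lower in siHOTAIRM1 in each cell line. SYT1 was called lower (-0.83, SE 0.15, adjusted p = 0.00138, limma), and RBFOX3 lay below 1 CPM throughout. SNAP25 rose in LN-229 (from 6.88 to 8.46 CPM) and was lower in siHOTAIRM1 elsewhere. GAD1 rose in LN-229 (from 8.055 to 8.43 CPM) and U251 (from 2.335 to 3.55 CPM) and was lower in T98G. The part of this in the results was not tested. On the log2(CPM + 1) scale, all genes tested had a median change of -0.19 in T98G, 0.01 in LN-229 and -0.03 in U251, so that changes in T98G are also given relative to that median.

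Of the 31 genes, 23 averaged 1 CPM or more across the libraries and were tested: 13 semaphorins, 8 plexins and both neuropilins. PLXNC1 reached this mean through T98G alone and SEMA3D through LN-229 alone. The remaining 8 genes, SEMA3E, SEMA3F, SEMA3G, SEMA4A, SEMA4G, SEMA5B, SEMA6C and PLXNA4, lay between 0.11 and 0.66 CPM on average. Levels of different genes were compared only per kb of the canonical transcript.

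The 3 cell lines expressed different class 3 ligands. In LN-229, SEMA3B, a secreted semaphorin that binds both neuropilins, was the most abundant ligand at 32.9 CPM per kb in siControl and 34.0 CPM per kb in siHOTAIRM1. T98G and U251 were led by SEMA3C, another secreted ligand of the neuropilins, with 74.0 and 77.1 CPM per kb in T98G and 75.1 and 67.1 CPM per kb in U251, siControl first. SEMA3A, the secreted ligand that works through NRP1, was second in U251 (32.7 and 28.6 CPM per kb) and lay between 2.57 and 3.79 CPM per kb in the other two cell lines. SEMA3B reached at most 2.69 CPM per kb outside LN-229.

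Among the receptors, the neuropilins stood highest in 2 of the 3 cell lines. NRP2 measured 117 CPM per kb in U251 siControl and 106 CPM per kb in U251 siHOTAIRM1, the highest level of all 31 genes in each of these libraries. NRP2 and NRP1 lay close together in LN-229, at 17.5 and 16.4 CPM per kb in siControl and 14.5 and 14.6 CPM per kb in siHOTAIRM1. T98G differed in that PLXNB2, the widely expressed class B plexin, led by the mean of its libraries with 16.8 and 18.9 CPM per kb, beside NRP1 at 17.7 and 12.6 CPM per kb and NRP2 at 8.45 and 4.53 CPM per kb. PLXND1, a receptor of SEMA3E and of class 4 semaphorins, was at 9.26 and 10.7 CPM per kb in T98G and 8.74 and 9.89 CPM per kb in U251.

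**Figure D1:**
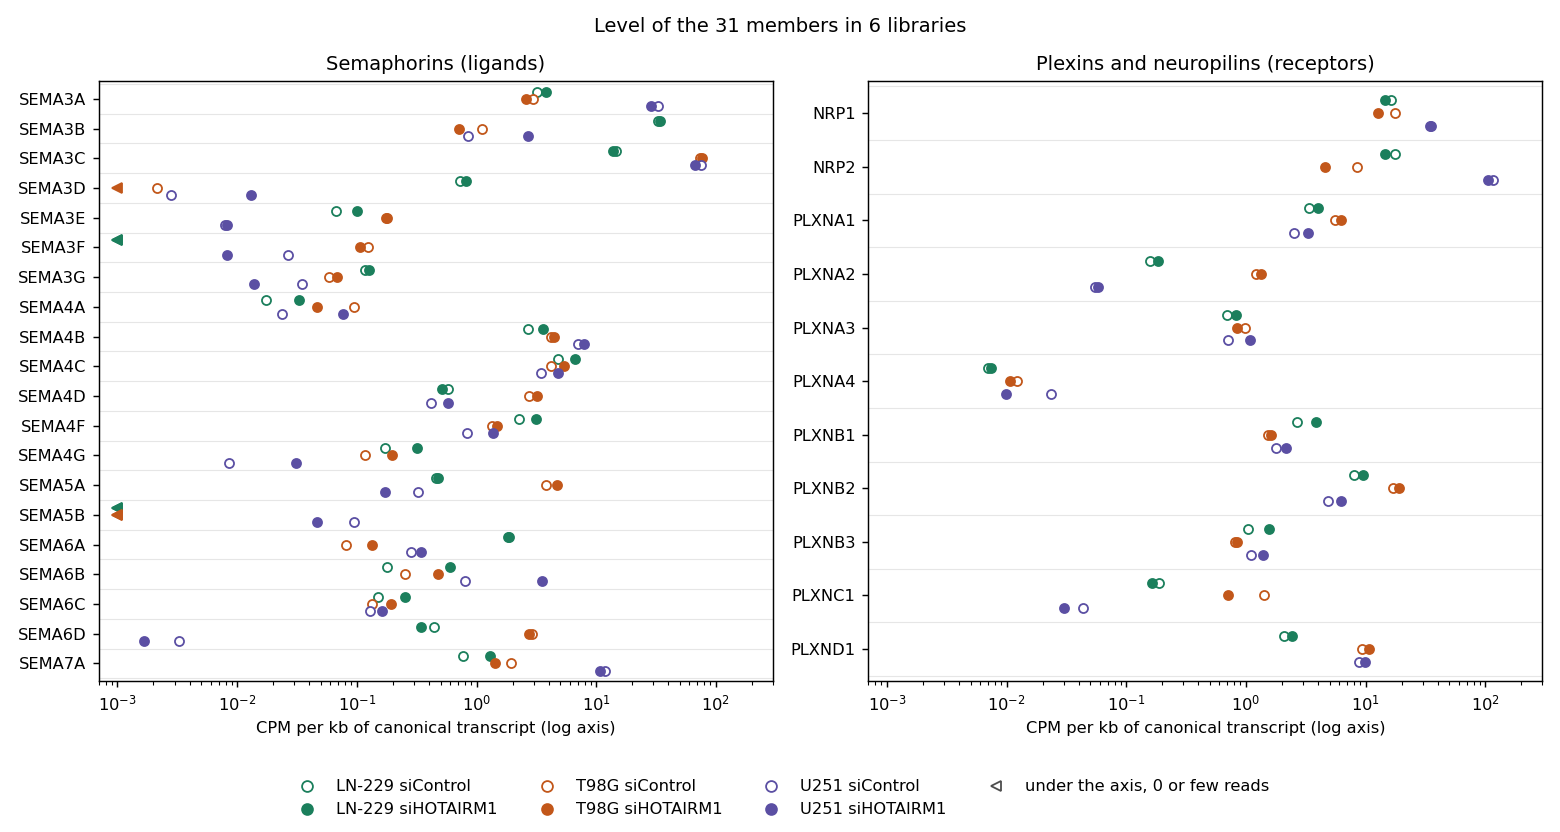
Level of the 31 genes in CPM per kb of canonical transcript on a log axis, ligands on the left and receptors on the right, with open circles for siControl and filled circles for siHOTAIRM1 in LN-229 (top of each row), T98G (middle) and U251 (bottom). Arrowheads at the left edge mark libraries with 0 reads. SEMA3B stands out in LN-229 at 32.9 and 34.0 and NRP2 in U251 at 117 and 106, and for most genes the circles of one cell line lie closer to each other than to those of another.

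Summed over the family members, ligands outweighed receptors in LN-229 and T98G, and receptors outweighed ligands in U251. The ratio of summed receptor to summed ligand level per kb was 0.789 in siControl and 0.719 in siHOTAIRM1 of LN-229, 0.636 and 0.556 in T98G, and 1.28 in both libraries of U251. When the merged length of all exons took the place of the canonical transcript, the mean ratio in U251 was 0.839, below 1. Class 3 semaphorins made up 73.5 to 81.2% of the ligand sum in every library. The neuropilins made up 85.4 and 88.5% of the receptor sum in U251 and 29.4 and 40.9% in T98G. With knock-down the plexin sum went from 18.2 to 22.5 CPM per kb in LN-229, from 37.7 to 41.2 CPM per kb in T98G and from 19.8 to 24.1 CPM per kb in U251. The neuropilin sum went from 33.9 to 29.1, from 26.1 to 17.2 and from 152 to 141 CPM per kb in the same order, as deposited. With each library rescaled to its listed genes, both neuropilins were higher after knock-down in U251 (log2 changes of 0.24 for NRP1 and 0.13 for NRP2). None of the sums was tested. In such cell cultures, fewer cells that express a gene and less RNA of it per cell cannot be told apart.

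**Figure D2:**
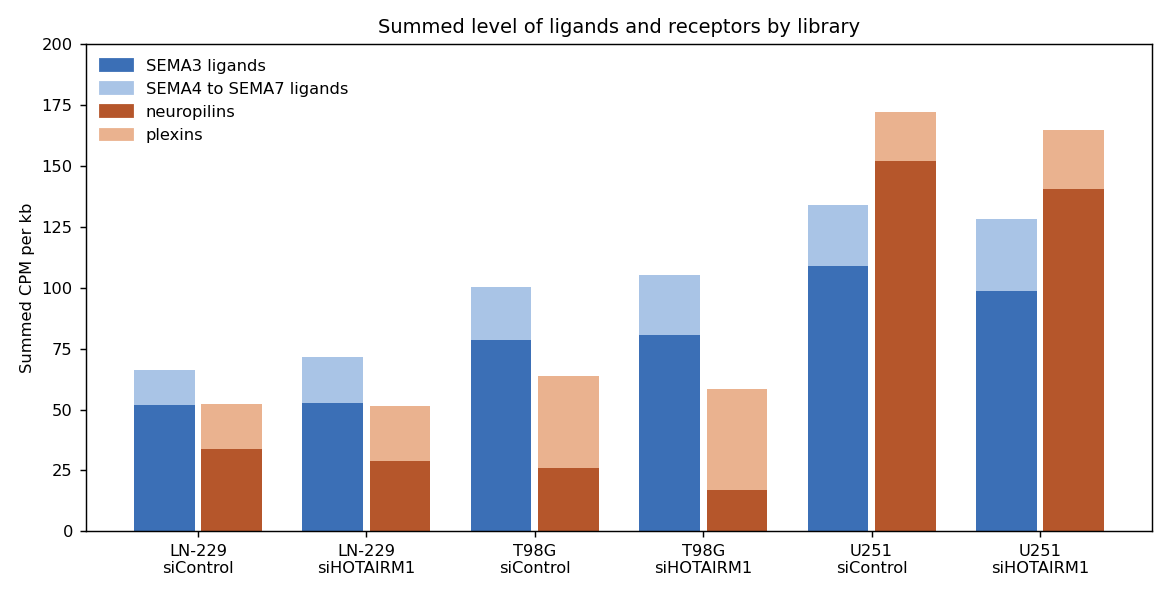
Summed CPM per kb of canonical transcript in each library, with ligands in the left bar of each pair (class 3 dark, classes 4 to 7 light) and receptors in the right bar (neuropilins dark, plexins light). The neuropilin part of the right bar reaches 152 and 141 in U251 and stays between 17.2 and 33.9 in the other cell lines.

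Differences between the cell lines were tested in the same fit, with the siPOOL as a covariate and 2 libraries a cell line, so they are differences of these cultures. Between T98G and LN-229, 18 of the 23 genes passed the adjusted threshold of 0.05, where 54.9% of all 14294 genes did. For U251 against LN-229 the count was 19 of 23 (60.6% of all genes), and for U251 against T98G it was 16 of 23 (64.2% of all genes). Without SEMA3D and PLXNC1, which passed the filter through 1 cell line, the counts were 16, 17 and 15 of 21. The calls of U251 against T98G over the 23 genes split into 9 higher and 7 lower in U251 as deposited, beside 5866 and 3304 of all 14294 genes. They were 7 and 10 after median centring, beside 4641 and 4549 of all genes. With each library rescaled to its listed genes, they were 7 and 13 of 26 genes, beside 3793 and 5837 of 15993.

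SEMA3B was at 105 and 108 CPM in LN-229, at 3.55 and 2.25 CPM in T98G and at 2.72 and 8.57 CPM in U251, siControl first. LN-229 was above both other cell lines without overlap, and the difference of T98G from LN-229 was -4.80 on the log2(CPM + 1) scale (SE 0.24, adjusted p = 3.45e-19, limma). SEMA4F, SEMA6A and PLXNB1 were also higher in LN-229 than in each of the other two (adjusted p under 0.05, limma). SEMA3D, a secreted ligand that passed the filter through LN-229 and so had to differ, was at 4.88 and 5.52 CPM in LN-229 and at 0 to 0.0890 CPM elsewhere.

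T98G had the highest level of SEMA4D, SEMA5A, SEMA6D, PLXNA1, PLXNA2 and PLXNB2, each called against both other cell lines. PLXNC1, which passed the filter through T98G and so had to differ, averaged 8.02 CPM there, 1.33 CPM in LN-229 and 0.276 CPM in U251. SEMA5A was at 44.6 and 55.0 CPM in T98G, 5.39 and 5.62 CPM in LN-229 and 3.79 and 2.03 CPM in U251. The 3 cell lines did not overlap, and U251 differed from T98G by -3.73 (SE 0.19, adjusted p = 1.74e-18, limma). SEMA6D, a transmembrane ligand of PLXNA1, was at 17.3 and 16.1 CPM in T98G, 2.61 and 2.04 CPM in LN-229 and at 1 read in each U251 library. PLXNA2, a receptor of class 6 semaphorins, was at 14.1 and 15.4 CPM in T98G, 1.80 and 2.14 CPM in LN-229 and 0.632 and 0.662 CPM in U251.

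U251 was highest in NRP1, NRP2, SEMA3A, SEMA4B, SEMA6B and SEMA7A. NRP2 was at 776 and 704 CPM there, 116 and 96.4 CPM in LN-229 and 56.1 and 30.1 CPM in T98G. The 3 cell lines did not overlap, and U251 exceeded T98G by 4.13 (SE 0.20, adjusted p = 3.66e-19, limma). NRP1, the receptor of SEMA3A, was at 199 and 196 CPM in U251, 92.7 and 82.1 CPM in LN-229 and 99.7 and 71.3 CPM in T98G, and the last pair of cell lines did not pass the threshold against each other (adjusted p = 0.842, limma). SEMA7A was at 40.0 and 36.5 CPM in U251 (11.85 and 10.8 CPM per kb). Its receptor PLXNC1 was at 0.325 and 0.227 CPM in the same libraries (0.0434 and 0.0303 CPM per kb).

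For 5 of the 23 genes no single cell line was highest. PLXNA3 passed in none of the 3 contrasts, with 7.60 to 11.7 CPM over all libraries. SEMA3C was called lower in LN-229, at 71.8 and 67.8 CPM, than in T98G (360.5 and 376 CPM) and U251 (366 and 327 CPM), and T98G and U251 differed by -0.09 (SE 0.20, adjusted p = 0.724, limma). PLXND1 was likewise called lower in LN-229 than in the other two, PLXNB3 was lowest in T98G, and SEMA4C was lower in U251 than in LN-229 (-0.43, SE 0.17, adjusted p = 0.0298, limma).

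The effect of HOTAIRM1 knock-down was tested over the 3 cell lines with the cell line as block. A single gene of the 23, SEMA6B, passed the threshold, and it was higher after knock-down. Over all 14294 genes, 0.413% were called higher and 1.59% lower. SEMA6B encodes a transmembrane class 6 semaphorin and is found at chr19:4542593-4581776 of hg38, minus strand. It was at 0.691 CPM in siControl and 2.33 CPM in siHOTAIRM1 of LN-229, at 0.970 and 1.83 CPM in T98G, and at 3.12 and 13.6 CPM in U251. The siHOTAIRM1 library was the higher one in each cell line, although the 2 groups overlapped across cell lines, since U251 siControl lay above the siHOTAIRM1 libraries of LN-229 and T98G. The fold was 3.37 in LN-229 (95% counting interval 2.54 to 4.54), 1.89 in T98G (1.40 to 2.57) and 4.36 in U251 (3.70 to 5.15). On the log2(CPM + 1) scale, which understates the change of low genes, SEMA6B rose by 1.11 (SE 0.16, adjusted p = 8.39e-05, limma). In the 11 alternatives that tested it, the change stayed between 0.75 and 1.52, and the call was lost in 8 of them, with adjusted p = 0.0635 to 1 (limma, or for 1 of them a per-gene paired t-statistic). Among these were removal of the trend with GC content (adjusted p = 0.130, limma), median centring (0.0728) and the fit without T98G (0.280).

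The other 22 genes did not pass. The 4 next by p were SEMA4C (0.41, SE 0.14, adjusted p = 0.110, limma), SEMA4F (0.39, SE 0.15, adjusted p = 0.142), PLXNC1 (-0.37, SE 0.14, adjusted p = 0.149) and NRP2 (-0.43, SE 0.17, adjusted p = 0.158). Directions within the cell lines are therefore given as a description. Of the 23 genes, 10 were higher after knock-down in all 3 cell lines and 4 were lower in all 3, where 11.4% of all genes tested were higher in all 3 and 28.1% lower. Relative to the median change of all genes in each cell line, the counts were 11 higher and 2 lower, beside 23.0% and 22.5% of all genes. These shares carry no test, and all comparisons rest on the same 3 pairs of libraries.

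**Figure D3:**
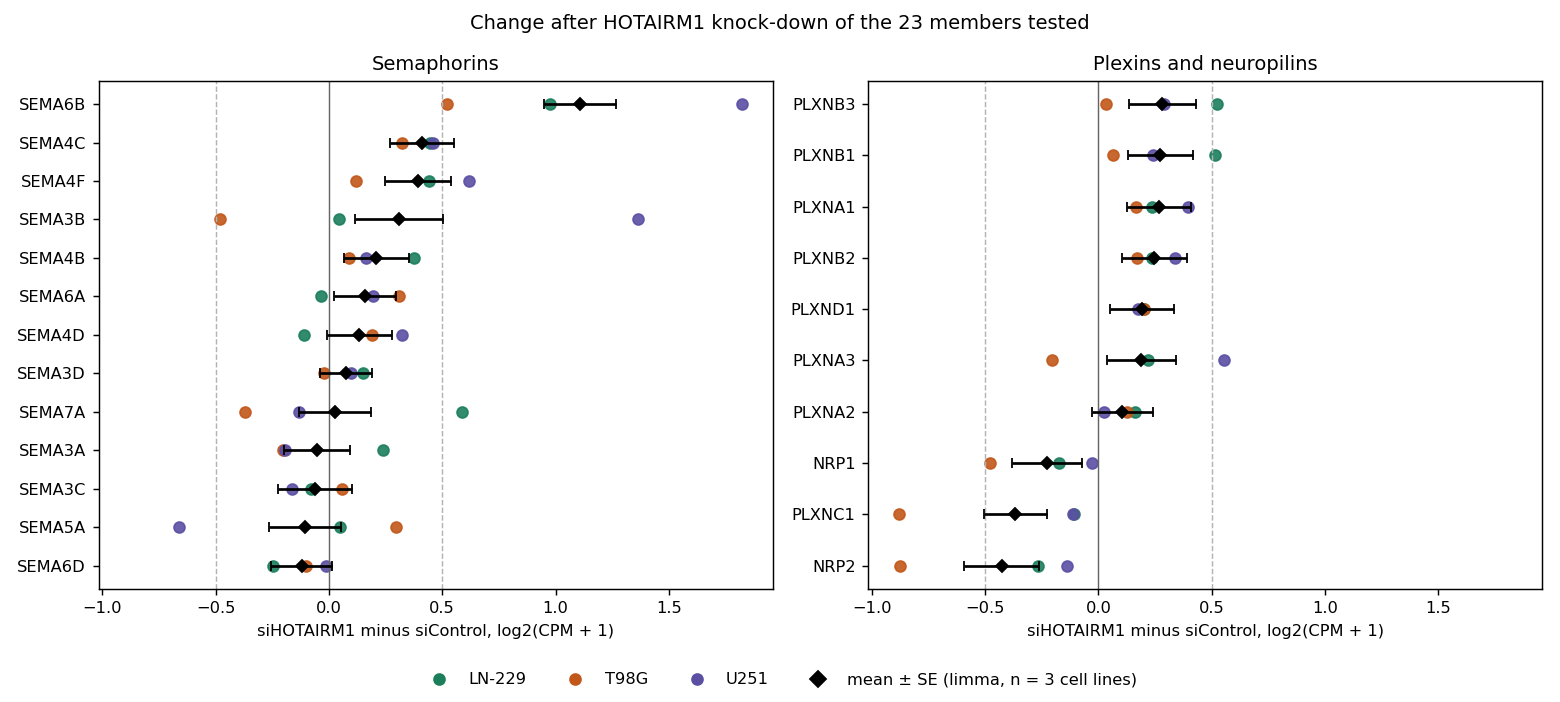
Change after HOTAIRM1 knock-down (siHOTAIRM1 minus siControl, log2(CPM + 1)) of the 23 genes tested, semaphorins on the left and plexins and neuropilins on the right, with 1 circle per cell line and a diamond with bars for the limma mean ± SE over 3 cell lines. Dashed lines mark a change of 0.5. SEMA6B lies apart at 1.11, and 6 plexins lie right of 0 in all cell lines as deposited (5 with the trend of GC content or length removed), while the neuropilins lie left of 0 as deposited (in U251 both lie right of 0 when rescaled to listed genes, and NRP1 also when median centred or with the GC trend removed).

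The plexins lay mostly above 0. PLXNA1, PLXNA2, PLXNB1, PLXNB2, PLXNB3 and PLXND1 were higher after knock-down in all 3 cell lines as deposited and after median centring, PLXNA3 joined them when rescaled to listed genes, and PLXNA2 left them in U251 when the trend with GC content or length was removed. The 8 plexins had median changes of 0.23 (LN-229), 0.10 (T98G) and 0.27 (U251), beside medians of 0.01, -0.19 and -0.03 over all genes. PLXNB1, the receptor of SEMA4D, went from 19.2 to 27.8 CPM in LN-229, from 11.0 to 11.5 CPM in T98G and from 12.9 to 15.4 CPM in U251. The LN-229 pair differed most, and the mean change was 0.27 (SE 0.14, adjusted p = 0.310, limma). PLXNB3, the receptor of SEMA5A, went from 6.41 to 9.65 CPM in LN-229, from 5.00 to 5.15 CPM in T98G and from 6.74 to 8.46 CPM in U251. Of its exon bases, 20.4% are shared with SRPK3 on the same strand, which was at 0.0553 to 0.444 CPM. PLXNB2 went from 51.4 to 60.7, from 108 to 121 and from 31.3 to 39.9 CPM in the same order, with counting intervals of the fold above 1 in each cell line (1.14 to 1.23, 1.09 to 1.16 and 1.20 to 1.35).

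PLXNC1 and NRP2 were the receptors that were lower by at least 0.5 in a cell line. PLXNC1, the receptor of SEMA7A, went from 10.7 to 5.35 CPM in T98G, a fold of 0.501 (95% counting interval 0.442 to 0.567). In LN-229 it went from 1.42 to 1.24 CPM and in U251 from 0.325 to 0.227 CPM, with counting intervals of the fold that held 1. NRP2, a receptor of class 3 semaphorins and of VEGF-C, went from 56.1 to 30.1 CPM in T98G (fold 0.537, counting interval 0.509 to 0.566), from 116 to 96.4 CPM in LN-229 (0.830, 0.807 to 0.853) and from 776 to 704 CPM in U251 (0.908, 0.897 to 0.919). It was lower in each cell line as deposited, and rescaling to listed genes turned U251 to a change of 0.13. NRP1 went from 92.7 to 82.1, from 99.7 to 71.3 and from 199 to 196 CPM, and its U251 change of -0.03 turned to 0.24 with that rescaling, to 0.05 with median centring and to 0.05 with the GC trend removed. Relative to the median of all genes, the T98G changes were -0.69 for PLXNC1, -0.69 for NRP2 and -0.29 for NRP1.

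Among the semaphorins, SEMA4B, SEMA4C, SEMA4F and SEMA6B were higher in all 3 cell lines under each scaling tried. SEMA4C, a transmembrane ligand of PLXNB2, was at 17.4 and 24.1 CPM in LN-229, 15.5 and 19.6 CPM in T98G and 12.6 and 17.7 CPM in U251, siControl first. The folds were 1.38, 1.27 and 1.41, with counting intervals above 1. As deposited, all 3 siHOTAIRM1 libraries lay above all 3 siControl libraries, but only narrowly. The counting intervals of U251 siHOTAIRM1 (16.87 to 18.51 CPM) and LN-229 siControl (16.55 to 18.29 CPM) overlapped. Rescaling to listed genes, which sum to 55.92% and 47.01% of the CPM scale in these libraries, reverses their order, so the groups then overlap. SEMA4F was at 13.8 and 19.1 CPM in LN-229, 8.22 and 9.01 CPM in T98G and 5.05 and 8.29 CPM in U251, so the groups overlapped across cell lines, and the counting interval of its fold held 1 in T98G. SEMA4B went from 10.3 to 13.6, from 15.8 to 16.9 and from 26.6 to 29.9 CPM. SEMA6D was the semaphorin that was lower in all 3 cell lines, which in U251 rests on 1 read per library, and it was no longer so after median centring.

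A change of at least 0.5 within a cell line was used as a size call, with no test. LN-229 had 4 genes higher, PLXNB1, PLXNB3, SEMA6B and SEMA7A, beside 1.47% of all genes, and 0 lower, beside 0.993%. T98G had SEMA6B higher (0.644% of all genes) and NRP2 and PLXNC1 lower (8.26%). U251 had PLXNA3, SEMA3B, SEMA4F and SEMA6B higher (6.56%) and SEMA5A lower (11.9%). In T98G, the count of genes past 0.5 upwards was 4 when rescaled to listed genes, beside 3.17% of all genes so rescaled, and in U251 it was 10, beside 20.4%. SEMA6B was the gene past 0.5 in every cell line.

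Several genes went opposite ways in different cell lines. As deposited, 9 of the 23 genes were neither higher nor lower in all 3, beside 8651 of all 14294 genes. SEMA3B was higher in U251, from 2.72 to 8.57 CPM (fold 3.15, counting interval 2.64 to 3.79), and lower in T98G, from 3.55 to 2.25 CPM (0.636, 0.518 to 0.778), while LN-229 went from 105 to 108 CPM. SEMA7A was higher in LN-229, from 2.61 to 4.42 CPM (fold 1.70, 1.44 to 1.99), and lower in T98G, from 6.56 to 4.84 CPM (0.738, 0.640 to 0.850), with 40.0 and 36.5 CPM in U251. SEMA5A went from 44.6 to 55.0 CPM in T98G (1.23, 1.17 to 1.29) and from 3.79 to 2.03 CPM in U251 (0.535, 0.438 to 0.653), with 5.39 and 5.62 CPM in LN-229. PLXNA3, a receptor that partners with neuropilins, went from 7.64 to 11.7 CPM in U251 (1.53, 1.36 to 1.72), from 7.60 to 9.02 CPM in LN-229 and from 10.6 to 9.08 CPM in T98G. After subtraction of the all-gene median, the T98G changes were -0.02 for PLXNA3, -0.18 for SEMA7A, -0.29 for SEMA3B and 0.48 for SEMA5A, and the T98G change of PLXNA3 was 0.0004 when rescaled to listed genes, so that its opposite direction was absent there. The means over the cell lines were 0.31 for SEMA3B, 0.03 for SEMA7A, -0.11 for SEMA5A and 0.19 for PLXNA3, with SE between 0.15 and 0.19 and adjusted p from 0.401 to 0.952 (limma). The most abundant ligand of T98G and U251, SEMA3C, differed little between the conditions, with folds of 0.945 (LN-229), 1.04 (T98G) and 0.894 (U251).

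**Figure D4:**
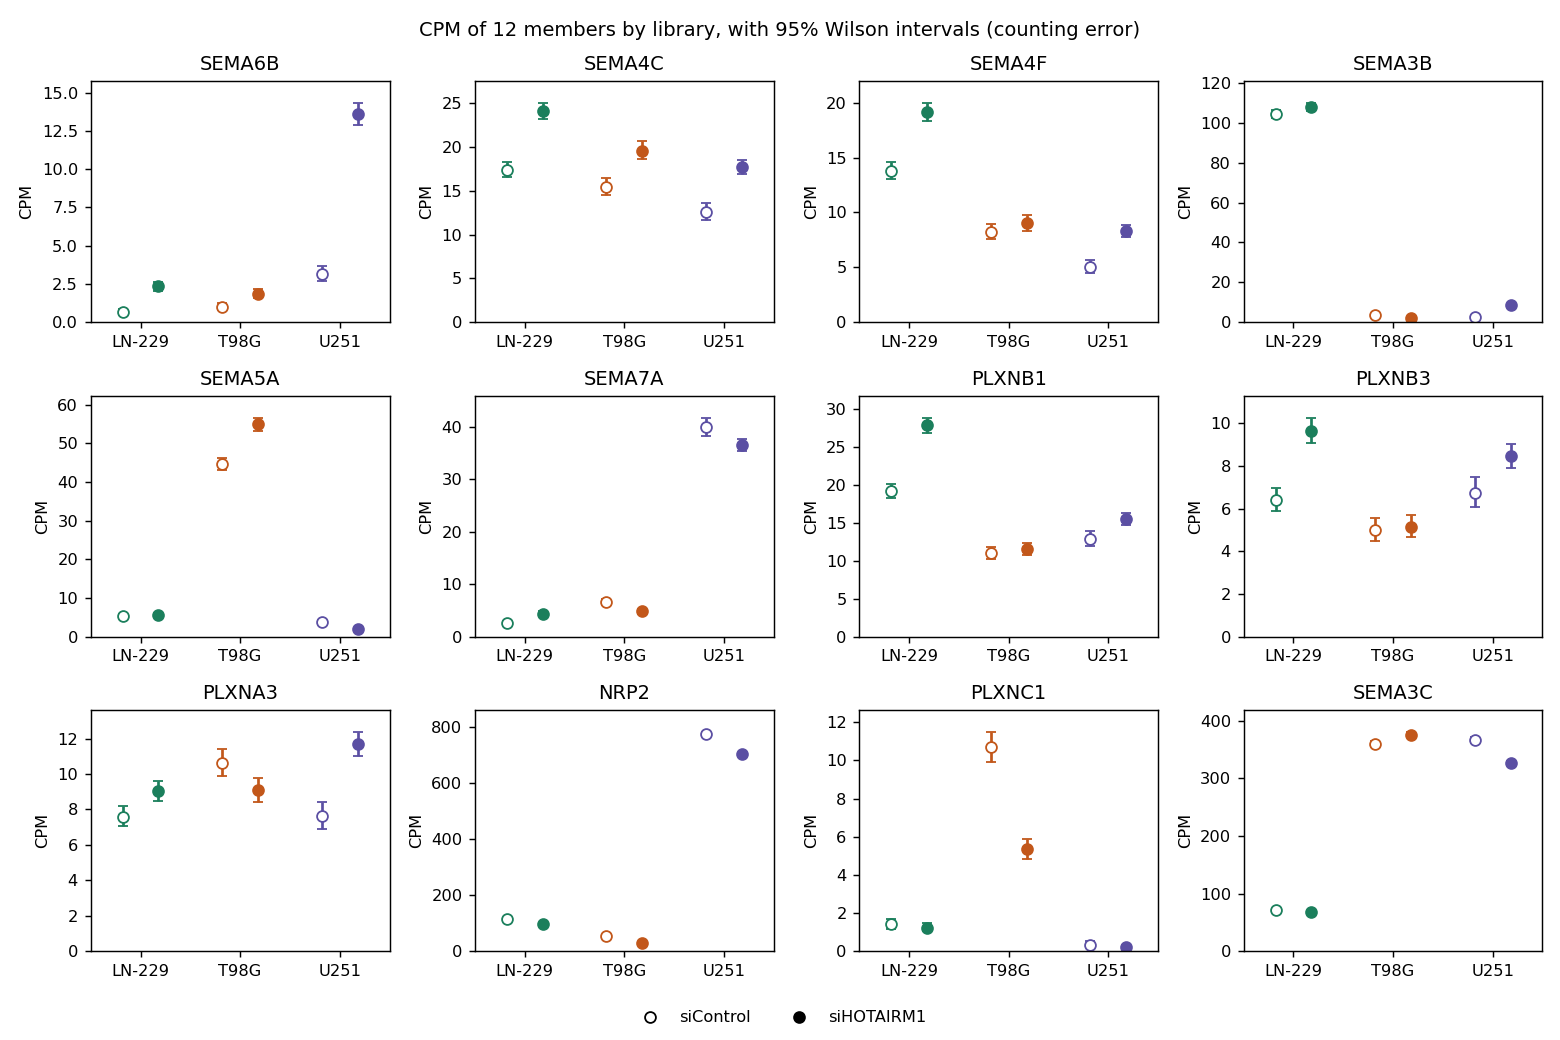
CPM of 12 genes in the 6 libraries, open circles for siControl and filled circles for siHOTAIRM1, with bars for the 95% Wilson interval of the reads. Each vertical axis starts at 0. SEMA6B and SEMA4C are higher in siHOTAIRM1 in every cell line, whereas SEMA3B, SEMA5A and SEMA7A move in different directions in different cell lines (SEMA7A in U251 turns to higher when rescaled to listed genes). PLXNA3 is lower in T98G as deposited and at 0.0004 there when rescaled.

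The 8 genes under the filter were low in every library. SEMA4G was the highest of them in a single library, with 0.317 CPM per kb in LN-229 siHOTAIRM1. Its levels were 0.770 and 1.42 CPM in LN-229, 0.521 and 0.880 CPM in T98G and 0.0384 and 0.138 CPM in U251. It shares 22.9% of its exon bases with MRPL43 on the other strand, which was at 10.7 to 37.4 CPM, and the library kit did not keep the strand, so reads of the overlap cannot be told apart. SEMA6C, a transmembrane class 6 semaphorin, was higher after knock-down in each cell line, with folds of 1.70, 1.42 and 1.25, and a counting interval above 1 in LN-229 (1.20 to 2.43). SEMA3F had 0 reads in both LN-229 libraries, with 95% Wilson intervals that reach up to 0.0435 CPM in siControl and 0.0370 CPM in siHOTAIRM1. It ends 78.5 kb before SEMA3B on chromosome 3, which was at 105 and 108 CPM in LN-229. SEMA5B had 0 reads in LN-229 and T98G and 0.459 and 0.227 CPM in U251. PLXNA4, a receptor of class 6 semaphorins, lay between 0.0907 and 0.306 CPM.

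Partners of the pathway were listed by symbol in 5 lists with 54 genes, of which 46 could be tested. None was called higher and 2 were called lower, beside 0.413% and 1.59% of all genes, and both belong to the 16 tested adaptors and enzymes that act with plexins. MICAL2, an oxidase of actin from the family that binds class A plexins, went from 6.57 to 4.40 CPM in LN-229, from 41.2 to 19.8 CPM in T98G and from 19.4 to 12.8 CPM in U251, and fell by 0.69 on the log2 scale (SE 0.15, adjusted p = 0.00812, limma). RND3, a small GTP-binding protein that binds plexins, went from 47.3 to 46.8 CPM in LN-229, from 25.1 to 12.4 CPM in T98G and from 116 to 57.1 CPM in U251, and fell by 0.66 (SE 0.16, adjusted p = 0.0233, limma). The RND3 difference thus lay in T98G and U251. Adjusted p of these calls exceeded the threshold in 7 of 12 alternatives for MICAL2 and in 9 of 12 for RND3. The lists of co-receptors (8 tested), other neuropilin ligands (4), small GTPases and actin regulators (14) and collapsin response mediators (4) held 0 calls in either direction, with median changes of -0.25, 0.01, -0.15 and -0.09 beside -0.07 over all genes. The exchange factors ARHGEF11 and ARHGEF12, which bind class B plexins, changed by 0.10 (SE 0.14) and -0.17 (SE 0.16), and GIPC1, which binds the cytoplasmic end of neuropilins, by 0.20 (SE 0.15), none past the threshold.

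The genes that were higher in all 3 cell lines were rich in G and C. Canonical transcripts of those 10 genes had 53.2 to 67.9% GC (median 62.0%), and those of the 4 lower genes 42.3 to 50.5%. Over all genes with an annotated transcript, those above 55.5% GC, 3084 genes, had median changes of 0.11 (LN-229), -0.17 (T98G) and 0.01 (U251), and the 3084 below 41.6% had -0.04, -0.19 and -0.15. After that trend was removed from each library, 11 of the 23 genes were higher in all 3 cell lines and 2 lower, beside 23.7% and 21.9% of all genes treated alike, with SEMA3A and SEMA3D in the higher set and PLXNA2 no longer in it.

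RefSeq promoter windows, from 250 bases before to 50 bases after a transcription start on GRCh38.p14, matched 27 of the 31 genes. NRP1, SEMA3A, SEMA6A and SEMA6B had no entry. Where a gene had several windows, the one nearest to its annotated 5' end was used. Some of these windows, such as those of PLXNA4 and SEMA4B, lie inside the annotated gene, away from its 5' end. A GC box (GGGCGG on either strand, overlapping matches counted) occurred in 20 of 27 windows (74.1%), beside 44.9% of all 35116 windows of the table, and the letters TATAAA on either strand in 0 of 27, beside 11.5% of all. The windows of all 9 matched genes that were higher in the 3 cell lines held a GC box, and 2 of the 3 matched genes that were lower. The share of windows with a GC box among all genes that passed the expression filter was not counted. These matches are descriptions of the letters. To show the range, the bases from 250 to 11 before the start are printed 5' to 3' for PLXNA1 and SEMA4C, higher in all cell lines, for NRP2 and PLXNC1, the receptors that were lower by at least 0.5 in T98G, and for SEMA3C, the leading ligand of T98G and U251. Capitals mark GC boxes. The start is the one listed by RefSeq. The stretches of PLXNA1, SEMA4C and NRP2 lie inside the annotated gene, downstream of its 5' end, so they are not sequence upstream of the gene.

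PLXNA1 (chr3:126982865-126983104, plus strand): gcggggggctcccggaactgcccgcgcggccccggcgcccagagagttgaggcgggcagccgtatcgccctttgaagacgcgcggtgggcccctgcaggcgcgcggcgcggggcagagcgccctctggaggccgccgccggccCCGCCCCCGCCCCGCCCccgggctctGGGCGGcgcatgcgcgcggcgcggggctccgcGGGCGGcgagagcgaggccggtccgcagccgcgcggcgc
SEMA4C (chr2:96870091-96870330, minus strand): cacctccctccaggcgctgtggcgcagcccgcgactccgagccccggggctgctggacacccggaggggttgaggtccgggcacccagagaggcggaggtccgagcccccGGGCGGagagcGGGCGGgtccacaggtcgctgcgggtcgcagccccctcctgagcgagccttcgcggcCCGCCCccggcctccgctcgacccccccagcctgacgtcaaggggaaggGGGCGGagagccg
NRP2 (chr2:205682251-205682490, plus strand): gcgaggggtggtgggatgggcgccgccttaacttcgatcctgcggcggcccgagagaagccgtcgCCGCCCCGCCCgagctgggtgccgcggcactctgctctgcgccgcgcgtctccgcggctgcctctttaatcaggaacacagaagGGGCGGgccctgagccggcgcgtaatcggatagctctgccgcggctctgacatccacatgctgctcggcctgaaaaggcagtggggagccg
PLXNC1 (chr12:94148327-94148566, plus strand): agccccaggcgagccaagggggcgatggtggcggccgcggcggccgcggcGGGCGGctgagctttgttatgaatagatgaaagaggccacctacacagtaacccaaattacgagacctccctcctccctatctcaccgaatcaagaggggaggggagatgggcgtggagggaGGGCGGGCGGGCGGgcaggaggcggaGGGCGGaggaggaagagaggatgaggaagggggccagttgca
SEMA3C (chr7:80922400-80922639, minus strand): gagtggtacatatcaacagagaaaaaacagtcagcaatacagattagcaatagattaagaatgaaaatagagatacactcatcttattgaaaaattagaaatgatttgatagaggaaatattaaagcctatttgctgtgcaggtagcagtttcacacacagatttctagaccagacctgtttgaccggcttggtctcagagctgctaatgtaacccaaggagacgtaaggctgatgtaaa

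The stretch of PLXNA1 was 84.2% GC with 5 GC boxes and 44 CG dinucleotides, and that of SEMA4C 77.5% with 4 boxes. NRP2 (69.6% GC, 3 boxes) and PLXNC1 (65.8%, 5 boxes, 3 of them overlapping in a row) also held them, so boxes occurred in genes of both directions. The stretch of SEMA3C, nearest of 2 listed starts, was 37.1% GC with 0 boxes and 2 CG dinucleotides. SEMA3C lies on chromosome 7 with SEMA3E, SEMA3A and SEMA3D in the same order, separated by 2441, 307 and 503 kb, and they did not share one leading cell line: SEMA3D was highest in LN-229, SEMA3E in T98G and SEMA3A in U251, while SEMA3C was higher in T98G and U251 than in LN-229. SEMA3E was not tested.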

How the data were processed

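The authors prepared unstranded TruSeq RNA libraries, trimmed reads in Partek Flow, aligned them to hg38 with STAR 2.4.1d and then Bowtie 2, and quantified them on Ensembl genes with an Expectation-Maximization algorithm. The deposited values are CPM of 59074 genes with 0.0001 added. They sum to 42.9 to 67.2% of the full CPM scale per library. The worth of 1 read was read from steps between low values. Because 85.3 to 87.0% of values up to 50 reads were whole (tolerance 0.02), no test for counts was used.

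Changes are differences of log2(CPM + 1). The 14294 genes that averaged 1 CPM or more were fitted with limma 3.58.1 (R 4.3.3, mean-variance trend, Benjamini-Hochberg, threshold 0.05, two-sided), with the cell line as block for knock-down and the siPOOL as covariate for cell lines. After subtraction of condition means, libraries of a cell line correlated with r = 0.948 to 0.967 and others with r = -0.505 to -0.467. Subtracting a mean over 3 cell lines by itself makes correlations between different cell lines negative, so that sign carries no information. Levels carry 95% Wilson intervals, and folds exact binomial intervals of the 2 read counts. Lengths, GC content and positions are from GENCODE v44 on hg38, later than the authors' annotation, and promoters from RefSeq. Values of all libraries are given for genes past the threshold, with a change of at least 0.5 in a cell line, or most abundant per kb. Other genes whose values are printed were chosen after their values were seen. Alternatives were other pseudocounts, filters, scalings and models, and leaving out each cell line. Removal of GC or length trends was added after the data were seen. The genes and lists were chosen with earlier results of these data known.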

Additional observations from a re-analysis of the deposited data

Results flagged for a closer look

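SEMA3B and SEMA5A were flagged because their changes went in opposite directions in a pair of cell lines, by at least 0.2 each after subtraction of the median change of all genes. The share of all genes that meet this rule was not counted. As deposited, 8651 of all 14294 genes were neither higher nor lower in all 3 cell lines, beside 9 of the 23 family genes. SEMA3B was 1.39 higher in U251 and -0.29 in T98G on that scale, a difference of 1.68 between the cell lines. SEMA5A was 0.48 higher in T98G and -0.64 in U251, a difference of 1.12. With 1 library per cell line and condition neither difference could be tested.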

How the results depend on the processing

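SEMA6B was the gene of the family called after knock-down. The count of family genes called was 0 instead of 1 with the GC trend removed, the length trend removed, a mean of at least 5 CPM (which leaves SEMA6B out), median centring, no filter, no cell line block (no replicate block), a per-gene paired t-statistic and rescaling to listed genes, and 0 to 1 with each cell line left out (0 without T98G). Over all genes, 286 calls became 8, 60, 607, 41, 0, 0, 0 and 19 in the same order, 683 with a pseudocount of 0.1, and 0 (without T98G) to 270 with a cell line left out. The count at an unadjusted p under 0.05 was 5 of 23 family genes in the fit as reported, beside 2622 of all 14294 genes (limma). Where a fit leaves out a cell line, fewer samples remain. For the other settings the cause was not tested.

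Of the 23 changes, 17 kept their sign in every alternative run. Reversed values, none past the threshold in any fit, were 0.10, 0.027 and 0.096 for SEMA3A and 0.092, 0.0175 and 0.088 for SEMA3C (GC trend removed, median centred, rescaled), 0.0047 for SEMA5A (rescaled) and 0.0028 for SEMA6D (GC trend removed). With a cell line left out, changes ran from -0.20 to 0.023 for SEMA3A, -0.22 to 0.70 for SEMA3B, -0.31 to 0.17 for SEMA5A and -0.25 to 0.23 for SEMA7A.

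Size calls upwards within T98G numbered 2 with a pseudocount of 0.1, 2 relative to the all-gene median and 4 when rescaled, against 1 as reported, and within U251 10 when rescaled, against 4. The U251 receptor to ligand ratio was 0.839 with merged exon lengths and 1.287 over genes of at least 1 CPM. All genes called between LN-229 and T98G ranged from 5107 to 5876 with 1 library of either left out. Depth limits the 8 genes under the filter, SEMA6D in U251, and SEMA3D in T98G and U251, where a library held few reads.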

Other observations

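Other ligands and receptors that neuropilins can pair with also differed between the cell lines. These genes were chosen after their values were seen, and the differences named here were not tested further. VEGFA, the vascular endothelial growth factor that binds both neuropilins, went from 49.9 to 129.6 CPM in U251 (fold 2.60, 95% counting interval 2.49 to 2.71), from 53.3 to 33.2 CPM in T98G (0.624, 0.592 to 0.657) and from 25.4 to 22.8 CPM in LN-229, siControl first. Its mean change was 0.18 (SE 0.20, adjusted p = 0.67, limma). The VEGF receptor FLT1 was at 139.8 and 151 CPM in LN-229, 5.02 and 3.93 CPM in T98G and 0.0384 and 0.0693 CPM in U251, whereas KDR was at 8.42 and 4.72 CPM in U251 and at no more than 3 reads in the others.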
